A study of Mus musculus with 21 samples.

Results

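Cholesterol is built from acetyl-CoA through mevalonate, squalene and lanosterol, and the genes of this route are switched on together by the sterol regulatory element-binding proteins (SREBPs). These 28 genes were chosen by name from general knowledge of the pathway and comprise 10 enzymes that lead to lanosterol, 9 enzymes that turn lanosterol into cholesterol, the branch enzyme Ggps1, 7 genes of SREBP control and the sterol carrier Stard4. Of the 28, 27 had a probe set annotated to them alone on the array, out of 17403 genes read in all. Acat2, the thiolase of the first step, had none and is not described further. The 27 genes were covered by 59 probe sets, of which 57 passed the intensity filter, and for a gene with several of them the values given are those of the set with the highest mean over all arrays.

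RNA was taken from the dorsal skin of female Hos:HR-1 mice, which are hairless and albino, arrived at 6 weeks of age and were acclimated for 1 week, and was measured on 21 Affymetrix arrays of the mouse genome. There were 3 arrays in each of 7 groups, namely skin after 1, 2, 4, 6 or 8 weeks of UV, called UV week 1 to UV week 8, and non-irradiated skin of week 1 and of week 8, called control week 1 and control week 8. The exposed mice received UV from a TL20W/12RS lamp 3 times a week, at a dose raised each week by 1 MED, a minimal erythema dose of 100 mJ per square centimetre, until 4 MED was reached. The labels name an array for each sample and tie none to a mouse, so the p-values measure the spread between arrays. The question put to the genes was how they change as skin photoages, against the control of week 1 and, at week 8, against the control of the same age.

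In the outer epidermis cholesterol forms the permeability barrier together with ceramides and fatty acids, and sebaceous glands make large amounts of lipid. When sterols in the endoplasmic reticulum are low, Scap carries the SREBP precursors to the Golgi, where the proteases encoded by Mbtps1 and Mbtps2 release the active factor. When sterols are high, the Insig proteins hold Scap back. The arrays measured transcripts and not this cleavage.

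SREBPs bind the sterol regulatory element, often beside CCAAT boxes bound by NF-Y. The 250 bases before the transcription start of Hmgcs1, Hsd17b7, Lss and Insig1 are shown because these genes gave the changes described here or, for Hmgcs1, because its window alone held the element searched for. The letters are those of RefSeq on GRCm38.p6, 5′ to 3′ on the strand of the gene, and capitals mark CCAAT or its complement ATTGG and the element TCACNCCAC, both searched on either strand, with no overlap between the matches of the different motifs.
Hmgcs1, chr13:119690101-119690350, plus strand: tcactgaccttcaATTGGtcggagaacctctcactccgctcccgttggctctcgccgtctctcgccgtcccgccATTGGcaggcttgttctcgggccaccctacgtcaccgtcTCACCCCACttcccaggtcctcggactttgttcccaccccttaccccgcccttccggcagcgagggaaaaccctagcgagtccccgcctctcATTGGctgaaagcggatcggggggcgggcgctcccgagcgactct
Hsd17b7, chr1:169969206-169969455, minus strand: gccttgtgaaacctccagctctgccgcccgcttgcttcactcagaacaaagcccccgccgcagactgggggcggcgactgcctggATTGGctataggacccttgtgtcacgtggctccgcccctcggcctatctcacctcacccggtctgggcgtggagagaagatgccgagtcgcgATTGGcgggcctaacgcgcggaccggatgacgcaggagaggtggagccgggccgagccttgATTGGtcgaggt
Lss, chr10:76531355-76531604, plus strand: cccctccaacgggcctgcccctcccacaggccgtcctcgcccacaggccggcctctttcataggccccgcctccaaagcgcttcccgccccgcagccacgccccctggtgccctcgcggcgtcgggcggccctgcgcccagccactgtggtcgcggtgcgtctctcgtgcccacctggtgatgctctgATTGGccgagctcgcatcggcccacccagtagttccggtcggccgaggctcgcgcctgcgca
Insig1, chr5:28071162-28071411, plus strand: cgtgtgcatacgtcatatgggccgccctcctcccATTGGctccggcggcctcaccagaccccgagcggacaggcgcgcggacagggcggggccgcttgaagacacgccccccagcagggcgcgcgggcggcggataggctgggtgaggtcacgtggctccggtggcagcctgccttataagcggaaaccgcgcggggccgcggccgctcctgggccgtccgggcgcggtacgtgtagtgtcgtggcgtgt

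A window was found for 24 of the 28 genes, and for none of Fdps, Fdft1, Sqle and Stard4. The element TCACNCCAC stood in 1 of the 24 (4.17%), Hmgcs1, at positions −137 to −129 from the start, against 1.22% of the 27025 genes with a window. CCAAT stood in 20 of the 24 (83.3%), against 37.5% of all genes, and per window, where a gene can have several, in 65.6% of 32 against 33.8% of 32851. Hsd17b7 carried 3 such boxes, at −165, −73 and −12, while Lss had 1 at −62 and Insig1 1 at −216. These matches describe letters only.

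The tissue label was checked against keratinocyte genes, and the probe sets of Krt10 and Krt14 lay above 99.9% and 99.5% of all probe sets in control week 1. Arrays of 1 group had correlations between 0.957 and 0.996 over probe sets. The log2 ratio of the 3′ to the 5′ beta-actin control probe sets, which rises as RNA is degraded, ranged from 2.26 to 5.14, and 8 arrays were above 4. Of these, 2 each belonged to UV weeks 1, 6 and 8 and 1 each to UV week 4 and control week 1. Arrays are named here by the number in their label.

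Hsd17b7, the 3-keto reductase of sterol synthesis, which also converts estrone to estradiol, had the largest change called among the 27 genes. Its intensity was 1543, 1452 and 1598 in control week 1, 1858, 2054 and 1636 in UV week 1, 2406, 2668 and 2039.7 in UV week 2, 3933, 3694 and 2957 in UV week 4, 2958, 3968 and 5105 in UV week 6 and 3562, 5108 and 4042 in UV week 8. Every irradiated array lay above every array of control week 1. In control week 8 the values were 1616, 2496 and 2313, below all 3 arrays of UV week 8. The log2 fold change against control week 1 was 1.19 ± 0.20 (SE, adjusted p = 0.00421) at UV week 4, 1.35 ± 0.20 (SE, adjusted p = 0.00117) at UV week 6 and 1.45 ± 0.20 (SE, adjusted p = 0.000456) at UV week 8. Against control week 8, UV week 8 was higher by 0.99 ± 0.20 (SE, adjusted p = 0.0103). In a bulk tissue, more cells of a type and more RNA per cell cannot be told apart, and the same holds for a fall. The probe set read, 1457248_x_at, is of a class that can share probes with other transcripts. Of the 3 other Hsd17b7 probe sets, 1417871_at rose by 0.68 ± 0.19 (SE, adjusted p = 0.0262) at UV week 8, 1440057_at had 0.75 ± 0.25 (SE, adjusted p = 0.055) and 1448865_at had −0.40 ± 0.43 (SE, adjusted p = 0.53). The call against control week 1 was made without each array in turn at all 3 weeks, whereas that against control week 8 was lost without the control array 51 (adjusted p = 0.051) or the UV array 552 (0.060), and was not made for the mean of the 4 probe sets (0.44, adjusted p = 0.105).

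**Figure D1:**
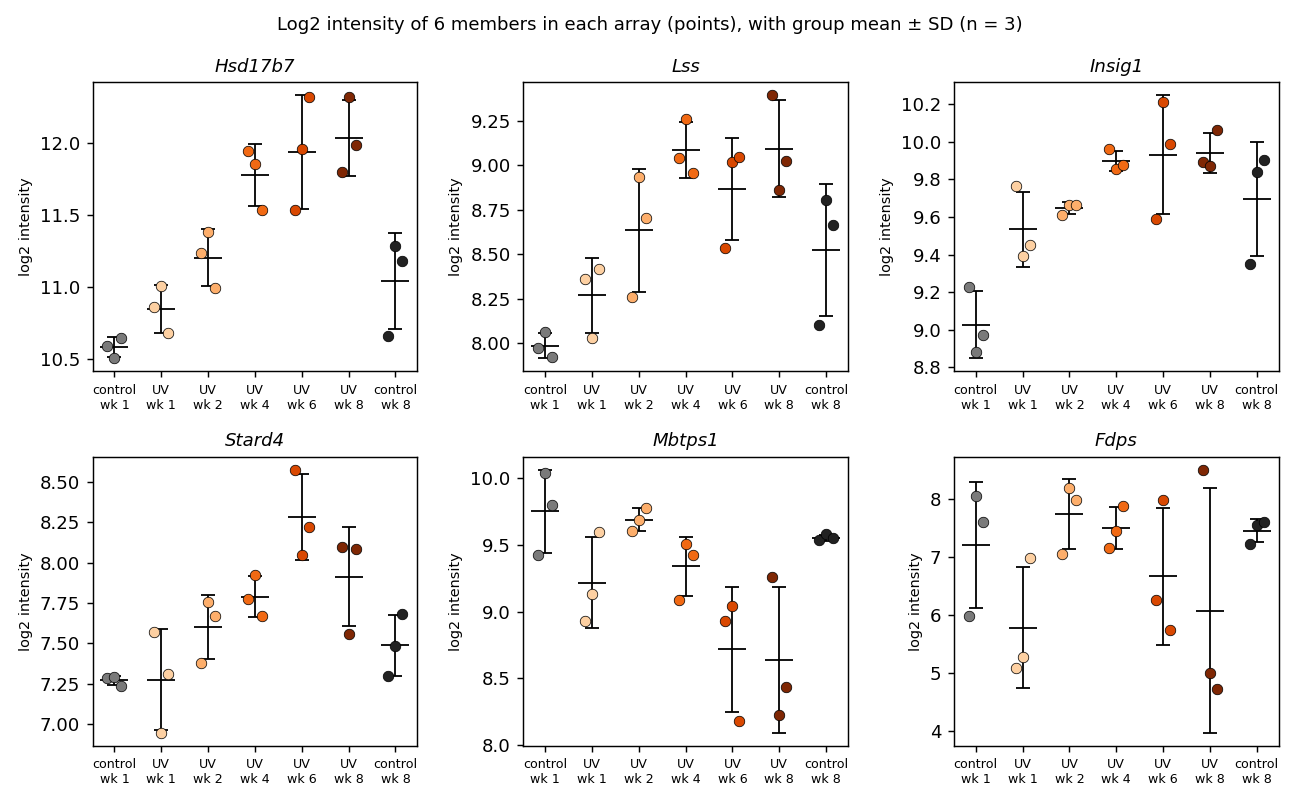
Log2 intensity of Hsd17b7, Lss, Insig1, Stard4, Mbtps1 and Fdps in each of the 3 arrays of 7 groups (points), with the group mean and SD (bar, n = 3), groups on the horizontal axis in order of time with control week 8 last. Hsd17b7 lay above control week 1 in every UV array, and Fdps in UV week 8 ran from 4.72 to 8.50, with array 551 the highest.

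Among the enzymes that lead to lanosterol, Lss, which closes the sterol rings, was called higher from week 4 on. In UV week 2 it already lay wholly above control week 1, at a mean log2 intensity of 8.63 against 7.99, and was not called. Lss had 251, 267 and 243 in control week 1, 527, 612 and 496 in UV week 4, 370.5, 518 and 528 in UV week 6 and 672, 464 and 521 in UV week 8. The UV groups of these weeks lay wholly above control week 1, and control week 8, with 275, 447 and 406, lay above control week 1 and below UV week 8. The log2 fold change was 1.10 ± 0.20 (SE, adjusted p = 0.00965) at week 4, 0.88 ± 0.20 (SE, adjusted p = 0.0134) at week 6 and 1.11 ± 0.20 (SE, adjusted p = 0.00327) at week 8, all against control week 1. Against control week 8, UV week 8 differed by 0.57 ± 0.20 (SE, adjusted p = 0.09), with groups that did not overlap and a test that was not passed. The call at week 4 was lost without UV array 333 (adjusted p = 0.067) and that at week 6 without UV array 445 (0.058). All 3 probe sets of Lss were called higher at week 8 against control week 1. Against control week 8 none was called, with 0.70 (adjusted p = 0.066) for 1420014_at and 0.03 (adjusted p = 0.94) for 1426913_at.

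Hmgcs1, which makes HMG-CoA at the entry to the pathway, and Fdft1, the squalene synthase, were called higher at weeks 6 and 8. At UV week 4 both also lay wholly above control week 1. Their differences there, 0.60 (adjusted p = 0.10) and 0.85 (adjusted p = 0.066), did not pass the test. Hmgcs1 had 8129, 10231 and 12558 in UV week 6 and 11298, 8711 and 10599 in UV week 8, against 7024, 7389 and 6338 in control week 1. The log2 fold change of Hmgcs1 was 0.56 ± 0.17 (SE, adjusted p = 0.041) and 0.55 ± 0.17 (SE, adjusted p = 0.0403) at these weeks. Fdft1 had 1977, 2492 and 3467 in UV week 6 and 3347, 2037 and 2369 in UV week 8, against 1678, 1469 and 1193 in control week 1, and its log2 fold change was 0.85 ± 0.22 (SE, adjusted p = 0.0204) and 0.82 ± 0.22 (SE, adjusted p = 0.0227). Both genes were wholly above control week 1 at both weeks, and neither passed the test against control week 8, where the differences at UV week 8 were 0.11 and 0.22. In control week 8 Hmgcs1 stood at 8431, 10832 and 9038 and Fdft1 at 1858, 2541 and 2144, above control week 1 in every array. The week 8 call of Hmgcs1 was kept when UV array 551 was left out and lost without any other single array (adjusted p up to 0.15). At week 6 it was kept without UV array 441 alone (adjusted p up to 0.18). The week 8 call of Fdft1 was lost without control array 13 (adjusted p = 0.080), control array 16 (0.092) or UV array 555 (0.067), and its week 6 call without control array 13 (0.076), control array 16 (0.081) or UV array 445 (0.10). Averaged over its probe sets, Hmgcs1 had −0.33 at week 6 and −0.30 at week 8, not called, and Fdft1 0.12 at both weeks.

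At the probe set read, the other enzymes of this stretch did not pass the test in any week. Mvd, which decarboxylates mevalonate diphosphate, had the largest of these differences, 1.15 ± 0.33 (SE, adjusted p = 0.11) at UV week 4, with 175, 220.2 and 205 against 77.1, 103 and 90.3 in control week 1 and no overlap. At UV week 8 Mvd had 302, 93.4 and 156, a spread that reached into the range of control week 1. Idi1, the isopentenyl diphosphate isomerase, differed by 0.72 at week 4 and 0.37 at week 8, Sqle, the squalene epoxidase, by 0.52 and 0.05, Pmvk by 0.45 and 0.17 and Mvk, the kinase of mevalonate, by 0.40 and 0.03. Fdps, the farnesyl diphosphate synthase, varied widely between the arrays of UV week 8. Fdps had 361, 32.1 and 26.3 in UV week 8, against 63, 263 and 193 in control week 1 and 149, 187 and 193 in control week 8. The high value of UV week 8 belonged to array 551, and the difference of −1.13 ± 0.79 (SE, adjusted p = 0.33) from control week 1 was not past the test. Without array 551 Fdps was called lower, at −2.34 against control week 1 (adjusted p = 0.0085). That left arrays 552 and 555, with beta-actin log2 ratios of 5.14 and 4.90. Within groups the slope of Fdps on this ratio was −0.995. With the ratio as a term of the model and all arrays, the difference from control week 1 was −0.09 (adjusted p = 0.90).

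After lanosterol the enzymes went different ways. Lbr, a C14 sterol reductase that also anchors chromatin at the nuclear envelope, fell at weeks 6 and 8, with log2 fold changes of −0.86 ± 0.23 (SE, adjusted p = 0.0262) and −0.78 ± 0.23 (SE, adjusted p = 0.038) against control week 1. Lbr had 621, 677 and 436 in UV week 6, all below the 893, 1036 and 1191 of control week 1, whereas UV week 8, with 928, 419 and 558, overlapped it through array 551. Tm7sf2, which encodes the other C14 sterol reductase, had 523, 283 and 285 in UV week 8, against 189.7, 262 and 230.1 in control week 1. The groups of Tm7sf2 did not overlap, and its difference of 0.63 ± 0.24 (SE, adjusted p = 0.0863) did not pass. Over the mean of the UV groups against the mean of both controls Tm7sf2 was called higher, at 0.51 (adjusted p = 0.023), and Lbr lower, at −0.49 (adjusted p = 0.024). That call was lost without control array 12, 51 or 55 for Tm7sf2 (adjusted p up to 0.066) and without control array 13, 16 or 55 for Lbr (up to 0.082). The fall of Lbr at week 8 was lost without any single array other than control array 12 or UV array 551 (adjusted p up to 0.21). At week 6 the call of Lbr was lost without control array 13 (adjusted p = 0.097), control array 16 (0.090) or UV array 445 (0.12).

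Cyp51, the lanosterol 14α-demethylase, had 2258, 2492 and 2432 in UV week 4, against 889, 1787 and 1478 in control week 1, without overlap, and a difference of 0.85 ± 0.26 (SE, adjusted p = 0.14). Both other probe sets of Cyp51 were called higher, 1422533_at by 1.12 ± 0.21 (SE, adjusted p = 0.0107) at week 4 and 0.77 at week 8 and 1422534_at by 1.01 ± 0.21 (SE, adjusted p = 0.0182) and 1.21. Msmo1 and Nsdhl, which remove the methyl groups at C4, differed by 0.75 and 0.33 at week 4 and by −0.08 and −0.13 at week 8. Ebp, the sterol isomerase, had −0.31 at week 8 and Sc5d, the C5 desaturase, 0.06. None of these 4 genes passed the test in either week.

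Dhcr7 acts on 7-dehydrocholesterol, the compound from which UVB makes previtamin D3 in skin. Dhcr7 had 1399, 322 and 369.6 in UV week 8, against 1019.9, 1238 and 1400.0 in control week 8 and 440.4, 1046 and 774 in control week 1. Arrays 552 and 555 of UV week 8 lay below every control array, and array 551 lay within control week 8. The difference from control week 8 was −1.14 ± 0.41 (SE, adjusted p = 0.0894). Without array 551 it was −1.81 (adjusted p = 0.00048). That left arrays 552 and 555, with beta-actin log2 ratios of 5.14 and 4.90, against 3.11 to 3.46 in control week 8. The log2 ratio of the Gapdh control probe sets did not separate them. It was 6.09 and 5.93 in these arrays and 5.98, 4.85 and 6.21 in control week 8. Within groups the slope of Dhcr7 on the beta-actin ratio was −0.44. With the beta-actin ratio as a term of the model the difference from control week 8 was −0.73 (adjusted p = 0.10). With array 551 alone in UV week 8 it was 0.21.

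In SREBP control, Insig1, itself a target of SREBPs and the protein that retains Scap, rose. Insig1 had 599, 471 and 502 in control week 1, 869, 671 and 701 in UV week 1, 782, 812 and 812 in UV week 2, 996, 928 and 939 in UV week 4, 771, 1188 and 1016 in UV week 6 and 949.6, 937 and 1068 in UV week 8. Each irradiated array lay above each array of control week 1 in all 5 weeks. In control week 8 Insig1 stood at 652, 915 and 959, 2 of these 3 arrays within the range of the UV groups from week 4 on. The log2 fold change against control week 1 was 0.87 ± 0.16 (SE, adjusted p = 0.0101) at UV week 4, 0.91 ± 0.16 (SE, adjusted p = 0.00365) at week 6 and 0.92 ± 0.16 (SE, adjusted p = 0.00263) at week 8, and 0.24 ± 0.16 (SE, adjusted p = 0.33) for UV week 8 against control week 8. The week 4 call was lost without control array 13 or UV array 331 (adjusted p up to 0.064) and was not made against the mean of both controls (0.066).

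Mbtps1 and Mbtps2, the site-1 and site-2 proteases, were called in opposite directions at UV week 8. Mbtps1 had 612, 299 and 346 in UV week 8, below 687, 1052 and 891 in control week 1 and 742, 766 and 749 in control week 8 in every array. This probe set fell, with −1.12 ± 0.25 (SE, adjusted p = 0.0106) against control week 1 and −0.92 ± 0.25 (SE, adjusted p = 0.0383) against control week 8, and at UV week 6 with −1.04 ± 0.25 (SE, adjusted p = 0.0167) against control week 1. Another Mbtps1 probe set, 1431386_s_at, went the other way, with 0.66 ± 0.19 (SE, adjusted p = 0.0316), and a further one, 1431385_a_at, had 0.07 ± 0.13 (SE, adjusted p = 0.75), and the mean of its probe sets had −0.13, so no direction is given for the gene as a whole. The week 8 fall of 1448240_at, the Mbtps1 probe set read here, was lost without control array 13 (adjusted p = 0.071), UV array 552 (0.065) or UV array 555 (0.063), and against control week 8 without any single array other than 551 (up to 0.19). At week 6 it was lost without control array 13 or UV array 445 (up to 0.097).

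Mbtps2 had 773, 993 and 1061 in UV week 8, against 707, 579 and 653 in control week 1, and rose by 0.53 ± 0.14 (SE, adjusted p = 0.0209). The UV array 551 was the lowest of the 3 and still lay above control week 1. This call of Mbtps2 was lost without control array 13 or 16 or UV array 552 or 555 (adjusted p up to 0.12). Against control week 8, at 666, 713 and 748, the groups did not overlap and the difference was 0.40 ± 0.14 (SE, adjusted p = 0.0817).

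The genes of the factors themselves did not pass the test in any of the 12 comparisons. Srebf1 had 1030.1, 718 and 752 in UV week 8, against 758, 852 and 878 in control week 1 and 1088, 1094 and 1008 in control week 8. Srebf2 had 162, 87.4 and 109 in UV week 8, against 91.5, 138 and 136 in control week 1 and 114, 119.6 and 108 in control week 8. The differences at UV week 8 from control week 1 were −0.01 ± 0.15 (SE, adjusted p = 0.97) for Srebf1 and −0.05 ± 0.23 (SE, adjusted p = 0.90) for Srebf2. Scap, with −0.21 ± 0.39 (SE, adjusted p = 0.73), and Insig2, with −0.01 ± 0.14 (SE, adjusted p = 0.96), did not pass either. Insig2 in UV week 4, with 1546, 1648 and 1927, lay above all arrays of control week 1 (1341, 1380.3 and 1173).

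Stard4, which carries cholesterol between membranes, was highest in UV week 6. Stard4 had 156, 157 and 151 in control week 1, 219, 243 and 203 in UV week 4, 381, 265 and 299 in UV week 6 and 274, 189 and 271 in UV week 8. From UV week 2 on all UV arrays lay above control week 1, with a difference at UV week 2 of 0.33 that was not called. Stard4 rose by 1.01 ± 0.18 (SE, adjusted p = 0.00339) at week 6 and 0.64 ± 0.18 (SE, adjusted p = 0.029) at week 8. Control week 8, with 158, 179 and 205, overlapped UV week 8, and the difference between them was 0.43 ± 0.18 (SE, adjusted p = 0.14). The week 8 call was lost without control array 13, control array 16 or UV array 555 (adjusted p up to 0.14). The other Stard4 probe sets had −0.81 and −0.24 at week 8 and were not called, and the mean of the 3 probe sets differed by −0.14. Ggps1, which leads to geranylgeranyl groups for proteins instead of sterols, had 0.24 ± 0.19 (SE, adjusted p = 0.40) at week 8. A further probe set of Ggps1, 1419506_at, was called lower at −1.30 (adjusted p = 0.0162).

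**Figure D2:**
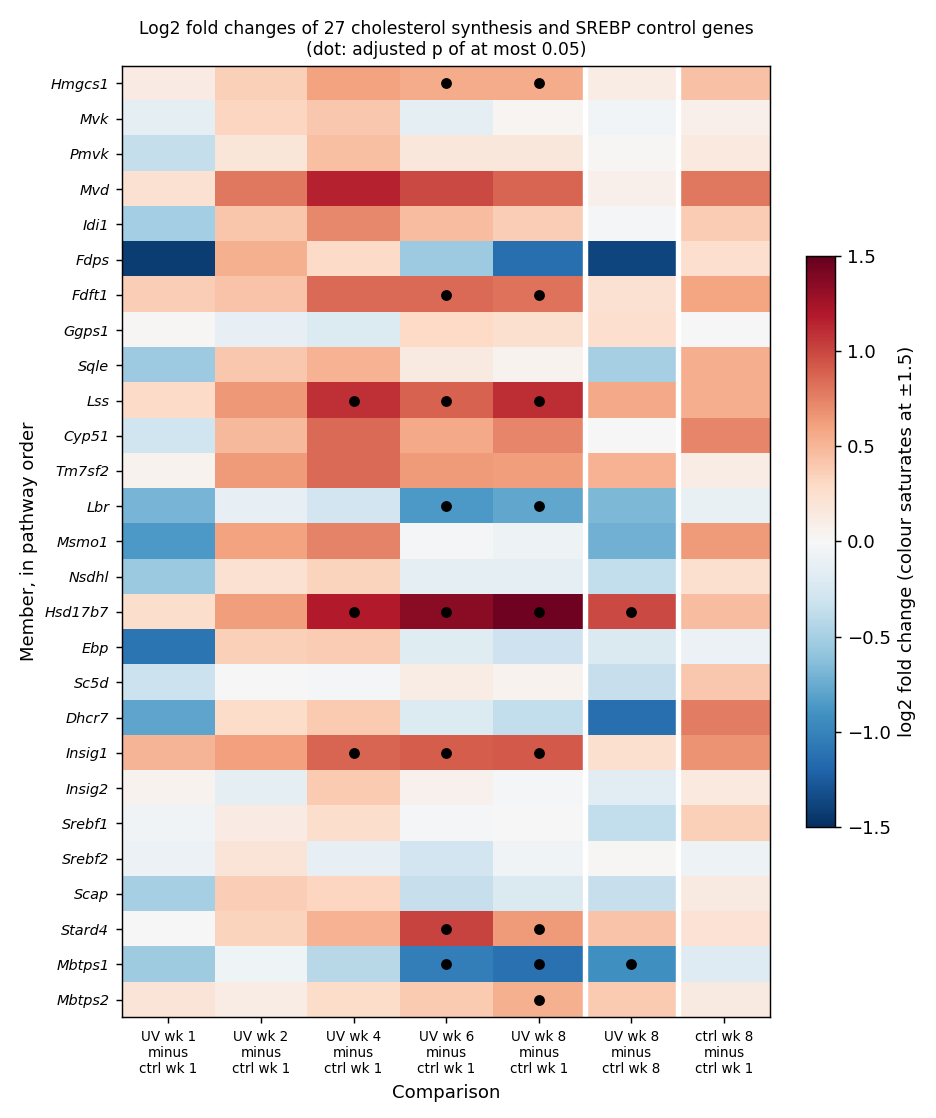
Log2 fold change (colour, red higher and blue lower) of the 27 genes, in pathway order down the page, for the 5 UV weeks against control week 1, UV week 8 against control week 8 and control week 8 against control week 1. Dots mark an adjusted p of at most 0.05, first at UV week 4 for Lss, Hsd17b7 and Insig1.

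Counted together, no gene of the 27 passed at UV weeks 1 and 2 against control week 1, where 0% and 0.0287% of all genes were called higher and 0.0115% and 0.046% lower. At an unadjusted p under 0.05, 1 was higher and 2 lower at week 1, against 9.75% and 9.85% of all genes, and 5 were higher and 0 lower at week 2, against 4.18% and 4.09%. At UV week 4, 3 were called higher and 0 lower, against 0.517% and 1.16% of all genes. At UV week 6, 6 were higher (Hmgcs1, Fdft1, Lss, Hsd17b7, Insig1 and Stard4) and 2 lower (Lbr and Mbtps1), against 5.29% and 7.65% of all genes. At UV week 8, the same genes with the addition of Mbtps2, 7 higher and 2 lower, were called, against 5.72% and 8.35%. With a 2-fold minimum, and leaving out probe sets that differed 1.5-fold between the controls, 2 higher and 1 lower were left at week 8, against 0.69% and 1.98% of all genes. The week 8 count was 3 without control array 13 or UV array 555 and 4 without control array 16, and Lss, Hsd17b7 and Insig1 were called in each of these. At UV week 8, 8 genes lay wholly above and 1 wholly below control week 1, against 11.4% and 11.2% of all genes. Over the mean of the UV groups against the mean of both controls, 5 were higher and 2 lower, against 6.81% and 9.84% of all genes. In a fit to the 2 compared groups alone the count at week 8 was 1, Hsd17b7. These weekly comparisons share the arrays of control week 1.

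Below the level of single calls, the 18 sterol enzymes lay on the higher side at UV weeks 2 and 4. Their median log2 fold change against control week 1 was −0.34, 0.41, 0.56, 0.15 and 0.12 in the 5 UV groups in order of time, where the median over all genes lay between 0.01 and 0.05. At UV week 4, 16 of the 18 had a value above 0 and 10 had all 3 UV arrays above all 3 control arrays. Over the 27 genes 14 were wholly higher and 1, Ggps1, wholly lower at UV week 4, against 12.3% and 11.5% of all genes. The 9 enzymes up to lanosterol were all above 0 at UV weeks 2 and 4, with medians of 0.42 and 0.60, where 51.7% and 55.1% of all genes were above 0. At UV week 8 the 9 enzymes after lanosterol had a median of −0.08 and ran from −0.78 (Lbr) to 1.45 (Hsd17b7).

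In non-irradiated skin most values of week 8 lay above those of week 1 as well, 22 of 27. In control week 8 against control week 1 no gene passed the test, against 0.046% of all genes called higher and 0.0517% lower, and 9 were higher and 0 lower without adjustment, against 2.9% and 3.28% of all genes. For 10 of the 27, among them Hmgcs1, Mvd, Fdft1, Sqle, Lss, Hsd17b7 and Insig1, all arrays of control week 8 lay above all arrays of control week 1, and for 0 below, against 6.6% and 7.9% of all genes. The median over the 18 enzymes was 0.42 and over all genes −0.002. The largest values were those of Mvd, 0.79 ± 0.33 (SE, adjusted p = 0.87), Dhcr7, 0.77 ± 0.41 (SE, adjusted p = 1.00), and Cyp51, 0.73 ± 0.26 (SE, adjusted p = 0.65). UV weeks 1 to 6 have no control of their own week, so UV and time in the experiment cannot be told apart there.

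At week 8, where a control of the same week exists, 2 of the 27 genes were called, Hsd17b7 higher and Mbtps1 lower, against 2.8% and 5.29% of all genes. The Mbtps1 call is that of 1 probe set, and the set 1431386_s_at of the same gene was called higher, at 0.68 ± 0.19 (SE, adjusted p = 0.0403). Over all 57 probe sets 5 were called higher, in 4 genes, and 1 lower, against 2.56% and 4.3% of all probe sets. The others called higher were Hsd17b7 1417871_at, at 0.68, Idi1 1423804_a_at, at 0.80 ± 0.15 (SE, adjusted p = 0.00826), and Cyp51 1422534_at, at 0.81 ± 0.21 (SE, adjusted p = 0.0291). At the probe set read, Mvd differed by 0.87 from control week 1 and by 0.08 from control week 8, and Cyp51 by 0.73 and −0.01. Lss, Tm7sf2 and Mbtps2 lay wholly above control week 8 as Hsd17b7 did, which makes 4 of 27, against 11.9% of all genes, and Mbtps1 alone lay wholly below, against 11.9%. The median over the 18 enzymes was −0.03. Without UV array 551 the count was 12. Of these, Hsd17b7 and Mbtps2 were higher and Fdps, Sqle, Lbr, Msmo1, Nsdhl, Sc5d, Dhcr7, Srebf1, Scap and Mbtps1 lower. The share of all genes called without array 551 is not given, so this count cannot be read as particular to these genes. Arrays 552 and 555, then left in UV week 8, had beta-actin log2 ratios of 5.14 and 4.90, against 3.11 to 3.46 in control week 8. Their Gapdh log2 ratios, 6.09 and 5.93, were close to those of control week 8, at 5.98, 4.85 and 6.21. Without control array 51 or UV array 552 the count was 0, and without control array 53 or 55 or UV array 555 it was 1, Hsd17b7.

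**Figure D3:**
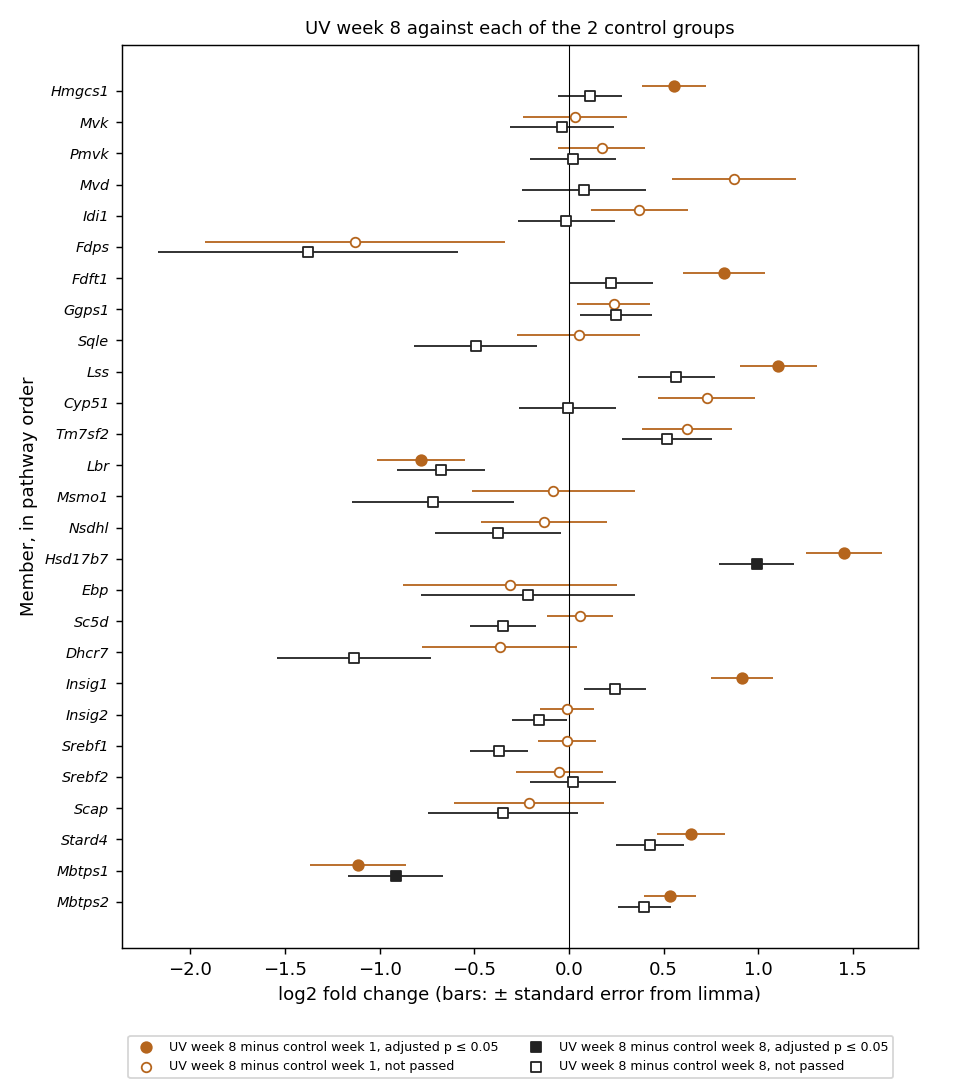
Log2 fold change of the 27 genes (horizontal axis, bars ± SE from limma) in UV week 8 against control week 1 (brown circles) and against control week 8 (black squares), filled where the adjusted p is at most 0.05. Hsd17b7 and Mbtps1 are filled for both controls, while Insig1 is at 0.24 and not filled against control week 8.

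The 3 arrays of UV week 8 were unlike each other in these genes. The median deviation of the 18 enzymes from the mean of control week 1 was 1.04 in array 551, −0.26 in array 552 and 0.07 in array 555, on the log2 scale. In array 551 17 of the 18 enzymes were above 0, in array 552 7 and in array 555 10. The beta-actin log2 ratio was 2.77, 5.14 and 4.90 in the same arrays. In UV week 6 the array of lowest ratio also had the highest median, with 0.58 in array 443, whose ratio was 2.36, and 0.11 and 0.18 in arrays 441 and 445, whose ratios were 4.12 and 5.11. In control week 1, the baseline, array 12 had −0.30 at a ratio of 4.74. Its partners 13 and 16 had 0.25 and 0.10 at ratios of 2.55 and 2.37. In UV week 4 the medians were 0.42, 0.78 and 0.64 at ratios of 3.38, 4.05 and 2.96, and array 333, which had the highest ratio of the 3, also had the highest median. Group means of the enzyme median were 0.02 ± 0.29 (SD, n = 3) in control week 1, −0.33 ± 0.25 in UV week 1, 0.41 ± 0.36 in week 2, 0.61 ± 0.18 in week 4, 0.29 ± 0.25 in week 6, 0.28 ± 0.67 in week 8 and 0.38 ± 0.24 in control week 8.

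**Figure D4:**
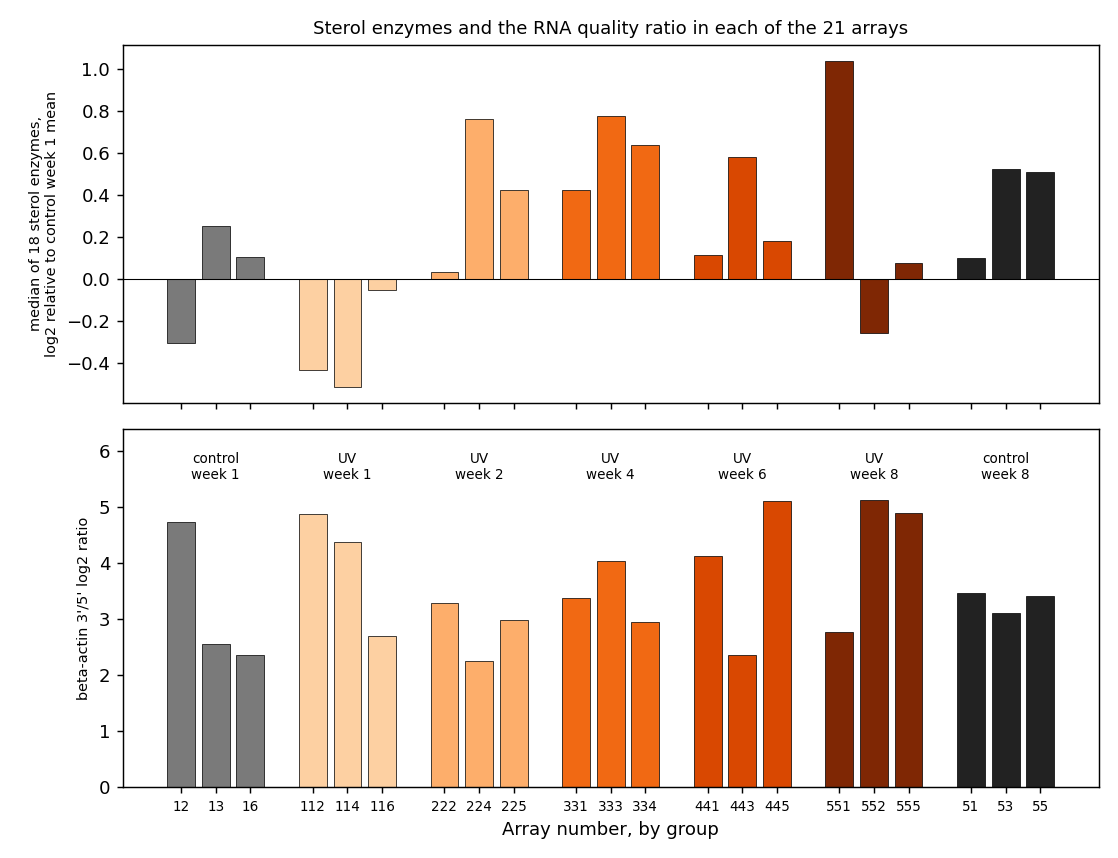
Median log2 deviation of the 18 sterol enzymes from the mean of control week 1 (upper bars) and the beta-actin 3′/5′ log2 ratio (lower bars) in each of the 21 arrays, by group and array number. Array 551 of UV week 8 has the highest enzyme median, 1.04, at a ratio of 2.77, and its partners at ratios of 5.14 and 4.90 have −0.26 and 0.07.

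Within groups, the intensity of 23 of the 27 genes was lower where the beta-actin ratio was higher, with a median slope of −0.23 per unit of log2 ratio, against 39.1% of all genes with a slope below 0 and a median of 0.04. The slopes ran from −0.995 for Fdps and −0.71 for Ebp to 0.08 for Hsd17b7. The genes called higher at weeks 4, 6 or 8 had slopes between −0.09 for Lss and 0.08 for Hsd17b7, while Mbtps1 had −0.27 and Lbr −0.23. With the ratio as a term of the model, Mvd, Idi1, Cyp51 and Tm7sf2 were called higher at UV weeks 4, 6 and 8 as well, and Fdft1 at week 4, which gave 8 higher at week 4, 10 higher and 2 lower at week 6 and 11 higher and 1 lower at week 8. The call lost was that of Lbr at week 8, at −0.54 (adjusted p = 0.054). With the ratio, 1.33%, 6.36% and 4.28% of all genes were called higher at these weeks and 2.32%, 9.92% and 7.63% lower. The count against control week 8 was 1 higher and 1 lower with the ratio too. Why intensities and the ratio vary together was not tested.

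Probe sets of 1 gene often differed, and 15 of the 27 genes had several. Over all 57 probe sets, 14 were called higher and 3 lower at UV week 8 against control week 1, in 10 and 3 genes, with Mbtps1 in both, against 5.39% and 6.73% of all probe sets. The Idi1 probe set 1423804_a_at rose by 1.43 ± 0.15 (SE, adjusted p = 6.64e-05) at week 8 and had 2418, 2654 and 2809.6 in UV week 8, against 1022, 989 and 915 in control week 1, whereas the set of highest mean, 1451122_at, gave 0.37. Their slopes on the beta-actin ratio were −0.03 and −0.24. Of the 4 other Hmgcs1 probe sets none was called, and 1433446_at, with a slope of −0.70, had −1.24 ± 0.59 (SE, adjusted p = 0.16). When the probe sets of a gene were averaged, 7 genes were called at week 8, and Idi1 and Cyp51 were among them, at 0.90 each.

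**Figure D5:**
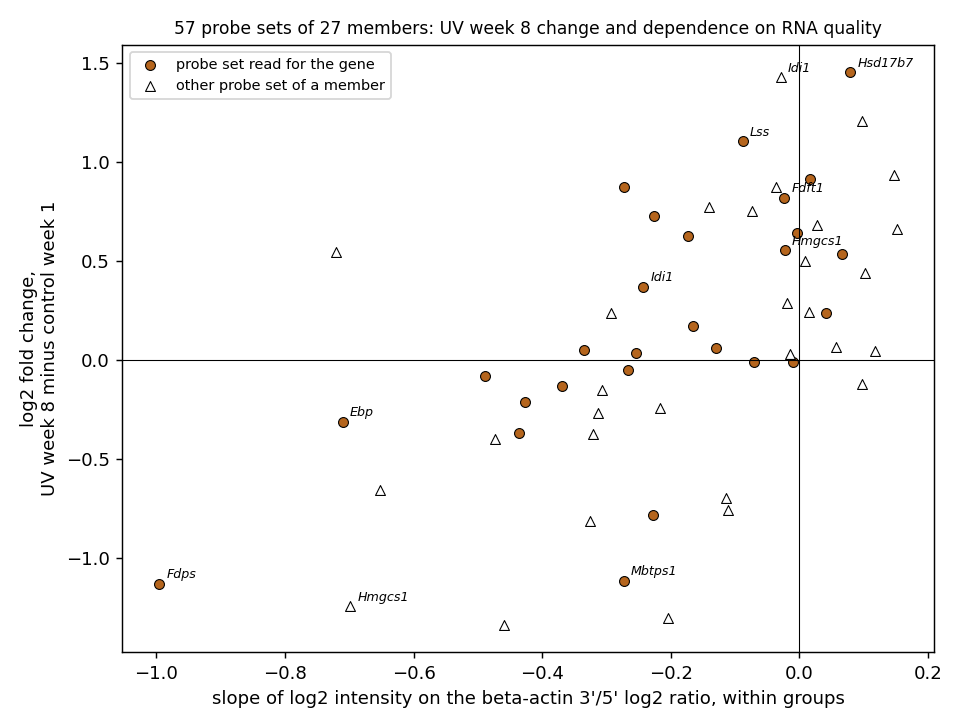
Log2 fold change in UV week 8 against control week 1 (vertical axis) and slope of log2 intensity on the beta-actin 3′/5′ log2 ratio within groups (horizontal axis) for 57 probe sets of the 27 genes, filled circles for the set read and open triangles for the others. Fdps stands at a slope of −0.995 and a change of −1.13, and the 2 Idi1 sets at slopes of −0.03 and −0.24.

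From one UV week to the next no gene of the 27 passed the test in any of the 4 steps. Of all genes, 0.0115% were higher and 0.00575% lower in UV week 2 against week 1, 0.0115% lower in UV week 6 against week 4, and 0% in the other steps and directions. The step between UV week 2 and UV week 1 was the most uniform of the 4, with all 18 enzymes above 0 in week 2, against 44.2% of all genes, a median of 0.58 and 11 higher at an unadjusted p under 0.05. Over the 27 genes, 12 were higher and 0 lower without adjustment, against 13.2% and 10.9% of all genes, and 11 were wholly higher and 0 wholly lower, against 14.1% and 14.5%. In the later steps 3 were higher and 0 lower in UV week 4 against week 2 without adjustment (2.99% and 3.53% of all genes), 2 higher and 3 lower in UV week 6 against week 4 (6.45% and 7.25%) and 0 in either direction in UV week 8 against week 6 (1.98% and 1.84%). Msmo1 had 2442, 4195 and 3678 in UV week 2, against 824, 1131 and 1919 in UV week 1, without overlap and with a difference of 1.47 ± 0.43 (SE, adjusted p = 0.18). Fdps had 132, 291 and 251, against 33.8, 38.8 and 126, and a difference of 1.96 ± 0.79 (SE, adjusted p = 0.19). The beta-actin ratio was 2.85 ± 0.53 in UV week 2 and 3.99 ± 1.14 in UV week 1 (SD, n = 3 each), and its part in the step was not tested. Without UV array 116 of week 1, Idi1 and Msmo1 were called, at 1.14 and 1.80.

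Genes of neighbouring pathways are read against the 5.72% of all genes called higher and 8.35% called lower at UV week 8 against control week 1. Without adjustment these shares were 16.6% and 16.7%. Against control week 8, 2.8% of all genes were called higher and 5.29% lower. Of 13 SREBP targets of fatty acid synthesis, such as Fasn and Scd1, none was called at UV week 8 against control week 1, where the median was −0.09 and 1 was higher and 2 lower without adjustment. Against control week 8 only Scd2, a stearoyl-CoA desaturase, passed, at −1.08 ± 0.31 (SE, adjusted p = 0.045). None of the 10 genes read of the other mevalonate branches (1 higher and 2 lower without adjustment) and none of the 6 of sterol-gated protein turnover (0 higher and 1 lower) passed at UV week 8 against control week 1. Of 6 efflux and LXR target genes, Mylip, the ubiquitin ligase of lipoprotein receptors, fell, at −0.77 ± 0.22 (SE, adjusted p = 0.034), against control week 1, and its difference of −0.40 ± 0.22 from control week 8 did not pass (adjusted p = 0.25). Of 11 genes of sterol transport and ester metabolism, Osbpl2, an oxysterol-binding protein relative, rose by 0.48 ± 0.13 (adjusted p = 0.024) against control week 1 and by 0.52 ± 0.13 (adjusted p = 0.025) against control week 8.

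Markers of other skin contents were called too. Against control week 1, the 8 sebaceous gland genes read had a median of 0.52 at UV week 4 with none called. At UV week 8 it was 0.31 with 1 higher and 1 lower, and 0.00 against control week 8. At UV week 4, 5 of the 8 were higher and 0 lower without adjustment. In UV week 2 against UV week 1 these counts were also 5 and 0, with a median of 0.47. The median in control week 8 against control week 1 was 0.36, with 0 higher and 0 lower without adjustment. For the 18 sterol enzymes the medians were 0.56, 0.58 and 0.42 in these comparisons and 0.12 at UV week 8. The summed intensity of the sebaceous gland genes was 30309 to 34192 in UV week 4 and 19067 to 43571 in UV week 8. It was 17276 to 28404 in control week 1 and 28360 to 31478 in control week 8. At UV week 8 against control week 1, 5 of 6 hair shaft genes, 5 of 7 adipocyte genes, 3 of 6 fibroblast genes and 4 of 6 skeletal muscle genes were called lower, where 8.35% of all genes were. Against control week 8 these counts were 2, 1, 2 and 3, where 5.29% of all genes were called lower. Their summed intensities were 218 to 940 in UV week 8, 6362 to 10886 in control week 1 and 1131 to 2789 in control week 8 for hair shaft genes, and in the same order of groups 21026 to 28802, 36885 to 44079 and 31469 to 36788 for adipocyte genes, 31857 to 47488, 54454 to 65801 and 48566 to 68043 for fibroblast genes, and 26375 to 39984, 61408 to 73005 and 60677 to 62096 for muscle genes. Hair shaft and adipocyte genes were thus lower in control week 8 than in control week 1 too, with median log2 differences of −1.86 and −0.73 and none called. The 6 basal keratinocyte genes summed to 8443 to 20322 in UV week 1, 19332 to 32457 in UV week 2, 7660 to 28903 in UV week 8, 14714 to 25526 in control week 1 and 19129 to 21932 in control week 8. In UV week 2 against UV week 1, 4 of these 6 were higher without adjustment and none was called, and at UV week 8 1 was called lower against each control. The 4 hyperproliferative keratinocyte genes summed to 15082 to 30718 in UV week 8, 7795 to 15816 in control week 1 and 8636 to 9658 in control week 8. Krt6b was called higher against both controls, and without adjustment 1 of the 4 was higher and 1 lower against each. Median intensities in UV week 8 and control week 1 were 13454 and 2340 for Krt6b and 5273 and 3593 for Krt6a. For Krt16 they were 843 and 801, and for Krt17 746 and 3140. Of 5 suprabasal keratinocyte genes, 1 was called lower against control week 1 in each UV group from week 2 on. Against control week 8, 1 was called lower too. Krt77 of this list had median intensities of 68.4 in UV week 8, 6461 in control week 1 and 9043 in control week 8. None of 5 cycling cell genes and none of 6 leukocyte genes was called at UV week 8 against either control. No marker was listed at 0. The part of these contents in the changes of the sterol genes was not tested.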

How the data were processed

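The authors deposited probe set intensities on a linear scale, normalized per array. Their methods name the Microarray Suite 5 preprocessor of Expression Console, whereas RMA is named in the submitters' notes. Which was used is not settled here. Values ran from 4.35 to 35056, with array medians between 30.1 and 33.3. A floor of 1 was set before taking log2. Probe sets that reached the 20th percentile of an array in at least 1 array were kept, 40540 of 45101, with 64 control probe sets left out. The platform annotation gave 1 gene symbol to 32317 of them, several to 853 and none to 7370, and no gene was named from a probe set with several.

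Groups came from the sample labels. limma 3.58.1 (lmFit and eBayes, R 4.3.3) was run on the 21 arrays together, each group having its own mean, with 14 residual degrees of freedom. Benjamini-Hochberg adjustment covered every kept probe set of a comparison, and a gene was called at an adjusted p of at most 0.05. The exact permutation test of 3 arrays against 3 cannot go below p = 0.1. On simulated data for UV week 8 against control week 1 (40540 probe sets), 94% of changes of 1.5 and 99% of changes of 3 on the log2 scale were called. The simulated noise was independent between probe sets and held no differences in RNA quality. Smaller changes were not simulated, and the largest change called among the 27 genes was 1.45, so the power for them is not given. The number of arrays limits the precision.

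The genes and lists were chosen with earlier results of these data known. All 28 genes were named, and from each other list up to 4 genes called at UV week 8, those of largest change, filled up from the comparison with control week 8. Alternatives concerned the filter, normalization, spread model, RNA quality ratios, probe set choice, arrays in the fit, baseline, call rule and single arrays. Promoter windows were read from RefSeq (GRCm38.p6). Figures were drawn with Python 3.11.15, matplotlib 3.10.9, pandas 2.3.3 and numpy 2.4.6.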

Additional observations from a re-analysis of the deposited data

How the results depend on the processing

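No paired analysis was possible because the array numbers are not shared between groups. The counts of the 27 genes called depended on the setting. Shares of all genes called are given above for the beta-actin ratio and, at UV week 8 against control week 1, for the 2-fold rule. For the other settings they are not given. A change of the count there cannot be set against that of all genes. At UV week 4 against control week 1 the count of 3 became 8 with the beta-actin ratio as a covariate, 7 with the Gapdh ratio, 6 without the 8 arrays of high beta-actin ratio, over 4, 5 with the mean of all probe sets and 5 in a fit to the compared groups alone. At UV week 6 the count of 8 became 4 in a fit to the compared groups alone and 3 under the 2-fold rule. At UV week 8 the count of 9 became 1 and 3 under the same settings. Against control week 8 the count of 2 became 7 with the Gapdh ratio (2 higher and 5 lower) and 0 with the mean of all probe sets, with the compared groups alone, under the 2-fold rule and without the arrays of high ratio, which left UV week 8 with array 551 alone, assumed to vary like the other groups. For the mean of the UV groups against the mean of both controls the count of 7 became 12 with the Gapdh ratio and 0 under the 2-fold rule. Leaving out each array in turn gave 2 to 3 calls at UV week 4, 3 to 9 at UV week 6 (3 without UV array 445), 3 to 11 at UV week 8 (11 without UV array 551), 0 to 12 against control week 8, 4 to 11 for the mean of the UV groups (4 without control arrays 13, 16 or 55, 11 without UV array 551) and 0 to 2 for UV week 2 against UV week 1. Averaging the probe sets of a gene turned Hmgcs1 to −0.33 at UV week 6 and −0.30 at UV week 8, and Stard4 to −0.14 at UV week 8 and −0.21 for the mean of the UV groups. The causes were not tested. Hsd17b7 against control week 1 was called at weeks 4, 6 and 8 in all 10 settings, of which that without the arrays of high ratio leaves 1 array each in UV weeks 6 and 8 and says nothing of stability there.

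The arrays of a group number 3, the submitters' processing is not settled, and the depth of signal over background could not be given, since detection calls were not used here.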

Other observations

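Enzymes that act on oxysterols changed in both directions at UV week 8 against control week 1, with 2 of 5 called higher and 2 lower, where 5.72% and 8.35% of all genes were. Ch25h, the cholesterol 25-hydroxylase, rose by 1.23 ± 0.24 (SE, adjusted p = 0.0041) against control week 1 and by 0.99 ± 0.24 (adjusted p = 0.022) against control week 8, with mean log2 intensities of 6.84 in UV week 8, 5.61 in control week 1 and 5.84 in control week 8. Cyp7b1, the oxysterol 7α-hydroxylase, rose by 1.46 ± 0.41 (adjusted p = 0.029) against control week 1, and its difference of 1.09 ± 0.41 from control week 8 did not pass (adjusted p = 0.10). Cyp39a1, another oxysterol 7α-hydroxylase, fell by 1.32 ± 0.28 (adjusted p = 0.0070) against control week 1 and had −0.47 ± 0.28 against control week 8 (adjusted p = 0.27). Hsd3b7, of bile acid synthesis, fell by 0.53 ± 0.17 (adjusted p = 0.047) and had −0.57 ± 0.17 (adjusted p = 0.047) against these controls.

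Of 4 genes read for sulfation and epidermal handling of cholesterol, 2, both synthases of the sulfate donor, were called lower at UV week 8 against control week 1, where 8.35% of all genes were. Papss1 fell by 0.92 ± 0.24 (SE, adjusted p = 0.020) against control week 1 and had −0.90 ± 0.24 (adjusted p = 0.032) against control week 8, with mean log2 intensities of 8.81 in UV week 8, 9.73 in control week 1 and 9.71 in control week 8. Papss2 fell by 0.78 ± 0.23 (adjusted p = 0.033) against control week 1, and its difference of −0.48 ± 0.23 from control week 8 did not pass (adjusted p = 0.18).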
